A study of Mus musculus with 10 samples.

Results

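Collagens are the structural proteins of the connective tissue of the colon, and their genes were followed here across 10 RNA-seq libraries of mouse colon. The family was taken as every gene of the deposited expression table whose symbol has the form of a collagen chain (Col, a type number, the letter a and a chain number), which gave 44 of 18398 genes. All mice were wild type. A normal diet, labelled as control, was given in 5 libraries, and a pro-inflammatory diet, labelled as treatment, in the other 5. The labels give neither the composition of that diet, its duration, nor the age or sex of the mice, and they do not say whether colitis was induced, although the title of the series speaks of colitis. They also do not say that each library came from its own animal, so the p-values measure only the spread between these libraries, which may be technical. Libraries are named here by diet and by the number in their title.

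Collagen chains assemble in groups into a rigid helix, and the classes differ in what the helices build. Fibrillar collagens (types I, II, III, V, XI, XXIV and XXVII) form the cable-like fibrils that give the submucosa its tensile strength, and type III is characteristic of distensible tissue such as gut and vessel wall. Type IV collagen forms the flat network of basement membranes under epithelium and around muscle cells, vessels and nerves. The multiplexins (types XV and XVIII) sit at the border of basement membrane and stroma, type VI forms beaded microfilaments around cells, and the fibril-associated collagens decorate the fibrils. Smaller classes are the hexagonal networks (types VIII and X), the anchoring fibrils of type VII and the transmembrane collagens (types XIII, XVII, XXIII and XXV). Of the 44 genes, 11 were fibrillar, 6 coded for the basement membrane network, 2 for multiplexins, 6 for beaded filaments, 9 for fibril-associated chains, 3 for hexagonal networks, 1 for the anchoring fibril, 4 for transmembrane chains and 2 for others.

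Several chains of the same protein lie next to each other in the genome, and the results below return to these pairs. Col4a1 and Col4a2, the chains of the common type IV network, start head to head on chromosome 8 and their annotated ends overlap by 22 bases. That shared stretch, from which the genes are read in opposite directions, is shown because it joins the pair (GRCm38, chr8:11312805-11312826, plus strand).
Col4a1 and Col4a2 shared start: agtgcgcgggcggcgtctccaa
Col4a4 and Col4a3 are also head to head, 71 bases apart on chromosome 1, and Col4a6 and Col4a5 are 1308 bases apart on chromosome X. Col3a1 and Col5a2 face each other tail to tail on chromosome 1, with 24614 bases between them, while Col6a2 and Col6a1 lie on the same strand of chromosome 10, 85161 bases apart. The 250 bases before the start of the 3 genes below were taken from RefSeq (GRCm38.p6). They are the member of highest level in the fibrillar class, a type I chain and the type VI chain of highest level. Capitals mark 3 motifs searched on both strands, which are the CCAAT box, the GC box core GGGCGG and the TATA box core TATAAA.
Col3a1 (chr1:45311288-45311537, plus strand): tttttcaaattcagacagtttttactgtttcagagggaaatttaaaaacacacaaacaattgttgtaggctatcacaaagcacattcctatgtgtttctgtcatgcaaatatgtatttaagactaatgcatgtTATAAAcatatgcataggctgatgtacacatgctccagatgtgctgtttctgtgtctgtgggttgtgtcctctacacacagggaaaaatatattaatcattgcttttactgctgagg
Col1a2 (chr6:4505368-4505617, plus strand): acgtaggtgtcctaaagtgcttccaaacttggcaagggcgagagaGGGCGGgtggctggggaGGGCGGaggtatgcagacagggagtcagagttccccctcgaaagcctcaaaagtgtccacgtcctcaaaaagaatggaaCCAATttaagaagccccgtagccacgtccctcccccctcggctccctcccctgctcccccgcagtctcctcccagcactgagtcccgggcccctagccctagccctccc
Col6a1 (chr10:76726045-76726294, minus strand): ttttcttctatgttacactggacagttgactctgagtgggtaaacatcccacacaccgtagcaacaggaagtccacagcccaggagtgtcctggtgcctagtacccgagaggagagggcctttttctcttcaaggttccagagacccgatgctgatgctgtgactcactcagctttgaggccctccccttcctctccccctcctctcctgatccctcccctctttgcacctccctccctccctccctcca
The Col3a1 window held TATAAA, beginning 117 bases before the start. The Col1a2 window held GGGCGG beginning 205 and 188 bases before the start and CCAAT beginning 109 before it, and the Col6a1 window held none of the 3. RefSeq windows were found for 35 of the 44 genes, in 38 windows. CCAAT was present in 34.2% of these and in 33.8% of all 32851 RefSeq windows of this length, TATAAA in 13.2% and 12.4%, and GGGCGG in 57.9% and 32.7%. These are matches of letters and say nothing of binding. GENCODE M21 places the first base of Col1a2 upstream of the window shown and that of Col6a1 within it.

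Levels are given in FPKM, mapped fragments divided by gene length and by the total of the library, as deposited by the authors. Reads on genes numbered 15652783 to 18341956 per library, and collagen genes took between 0.178% and 0.313% of them. Some libraries stood apart from the others of their diet. Pro-inflammatory diet libraries 2 and 5 held Hoxb13, a marker of distal colon, at 0.417 and 20.9 FPKM, against 211.0 to 341.0 in the other 8. Normal diet library 4 held genes of stratified squamous epithelium, such as Krt5 at 50.2 FPKM and Krt14 at 62.8, against at most 0.116 and 1.37 elsewhere. Epithelial markers, which do not tell colon from other gut, were present in all libraries (8 of 8 genes) and summed to 4718 to 6554 FPKM on the normal diet and 5686 to 7000.5 on the pro-inflammatory diet. Results for the family are given with and without these 3 libraries.

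Collagen transcripts in the colon were concentrated in a few genes. Summed over the 44 genes, the level was 516.0, 416.0, 465.0, 379.8 and 512.0 FPKM in normal diet libraries 1 to 5 and 413.0, 423.0, 320.0, 401.0 and 292.0 in pro-inflammatory diet libraries 1 to 5. The means were 458.0 ± 59.8 and 369.9 ± 59.5 FPKM (SD, n = 5 libraries each), and the groups overlapped. Pro-inflammatory diet libraries 3 and 5 lay below every other library, and normal diet library 4 lay below pro-inflammatory diet libraries 1, 2 and 4. Col3a1 alone made up 18.2% to 25.8% of the summed collagen FPKM in a library, the 5 genes of highest level (Col3a1, Col6a1, Col1a2, Col4a1 and Col1a1) 57.1% to 63.7%, and the highest 10 78.9% to 85.1%. Over all libraries 10 genes had a mean of at least 10 FPKM, 15 lay between 1 and 10, and 19 lay below 1, of which 9 were below 0.1.

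**Figure D1:**
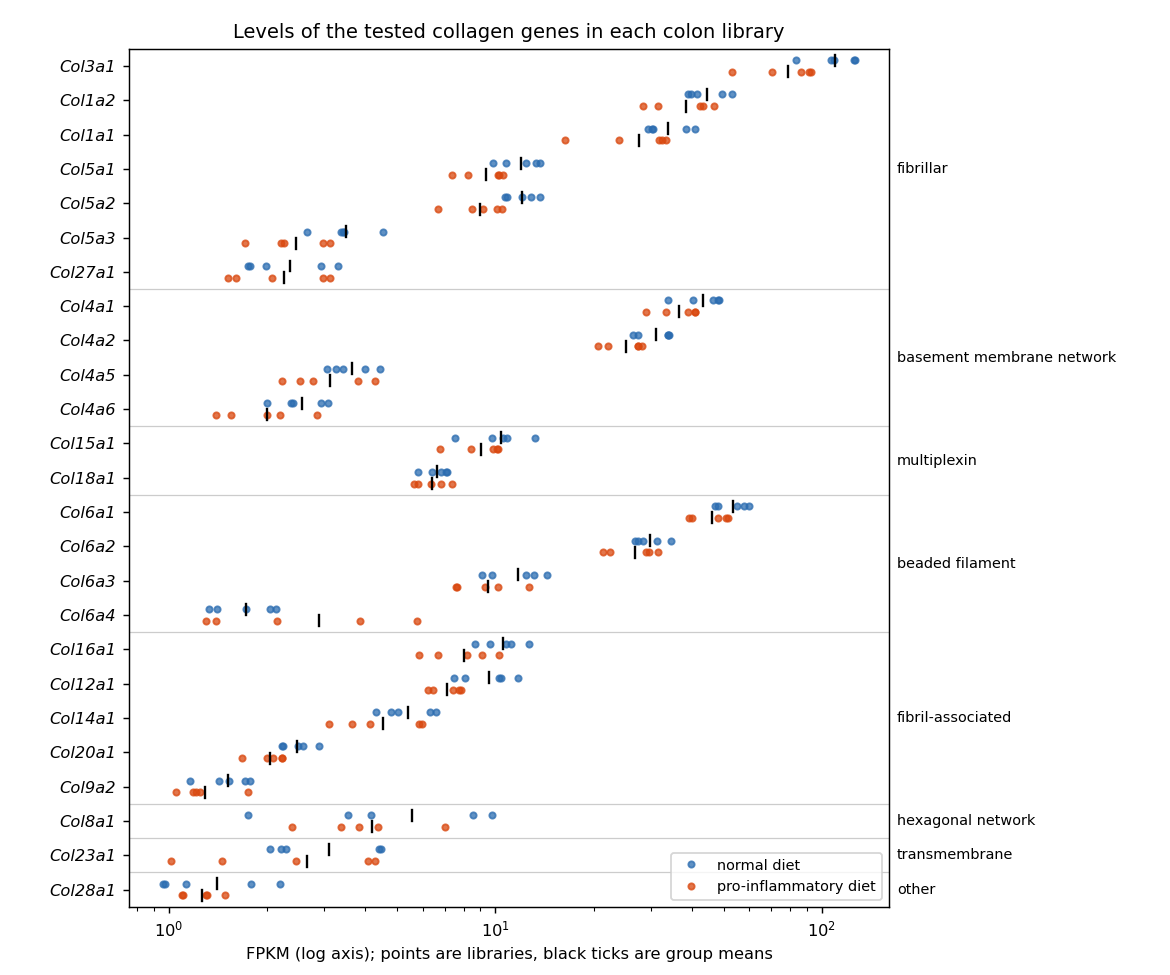
FPKM on a log axis of the 25 collagen genes with a mean of at least 1 FPKM, by class; each point is a library, blue for the normal and orange for the pro-inflammatory diet, and black ticks are group means. The ticks of the pro-inflammatory diet lie to the left of those of the normal diet in every gene but Col6a4, while the points of the diets overlap in every gene but Col5a2. Of all genes tested, 2.07% lay lower without overlap.

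The classes kept similar proportions on both diets. Fibrillar genes made up 47.9 ± 1.57% of the summed collagen FPKM on the normal diet and 45.3 ± 3.04% on the pro-inflammatory diet, beaded filament genes 21.2 ± 0.885% and 23.2 ± 1.35%, basement membrane network genes 17.7 ± 0.79% and 18.1 ± 0.322%, and fibril-associated genes 6.51 ± 0.231% and 6.36 ± 0.671%. These ranges overlapped. The share of the multiplexins was 3.48% to 3.95% on the normal diet and 3.97% to 4.45% on the pro-inflammatory diet, without overlap, in 1 of 9 classes, and no test was made of class shares. Shares within a library move against each other, since they add up to the whole.

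No collagen gene passed the test between the diets, although the means of nearly all lay lower on the pro-inflammatory diet. Genes with a mean of at least 1 FPKM were tested with limma on log2(FPKM + 1), with Benjamini-Hochberg adjustment over all 12345 such genes and a threshold of 0.05. Among the 25 collagen genes tested, 0 passed, as did 0 of all 12345 genes (0%), and limma voom on reads recovered from the FPKM also called 0. Adjusted p-values of the 25 ran from 0.173 to 0.914. Log2 fold changes, pro-inflammatory minus normal diet, were below 0 for 24 of the 25, against 52.9% of all genes tested, and their median was -0.223 against -0.013 over all. They ran from -0.49 to 0.39 and understate the change of low genes, because of the added 1. At an unadjusted p under 0.05, limma placed 8 of the 25 lower (Col3a1, Col5a1, Col5a2, Col5a3, Col4a2, Col12a1, Col16a1 and Col20a1), against 9.25% of all genes, and 0 higher, against 8.16%. The 5 values of the pro-inflammatory diet all lay below the 5 of the normal diet for 1 of the 25, Col5a2 (2.07% of all genes), and all above for 0 (1.77%). Collagen genes of a library share their cells and are not independent, so these counts are descriptions. In bulk tissue, fewer cells of a type and less RNA per cell cannot be told apart.

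These counts moved with single libraries. Pro-inflammatory diet library 5 held the lowest value in 13 of the 25 genes and in 8 of the 10 of highest level. Without this library the median log2 fold change was -0.173 and limma placed 5 genes lower at an unadjusted p under 0.05, while the share of all genes placed lower was 6.57% in place of 9.25%. Without normal diet library 5, which held the highest value in 8 of the 25 genes, that count was also 5 and the share 7.49%. Without normal diet library 4, with its squamous epithelial genes, the median was -0.292 and the count 11, with 12.1% of all genes. Leaving out pro-inflammatory diet libraries 2 and 5 together, the libraries low in Hoxb13, gave a median of -0.229 with 25 of 25 genes lower and 8 at an unadjusted p under 0.05, against 7.38% of all genes. Leaving out all 3 libraries that stood apart, a setting added after seeing the data, gave -0.273, with 25 of 25 lower and 13 at that p, against 12.1% of all genes. Over each of these settings 0 collagen genes passed the adjusted threshold.

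**Figure D2:**
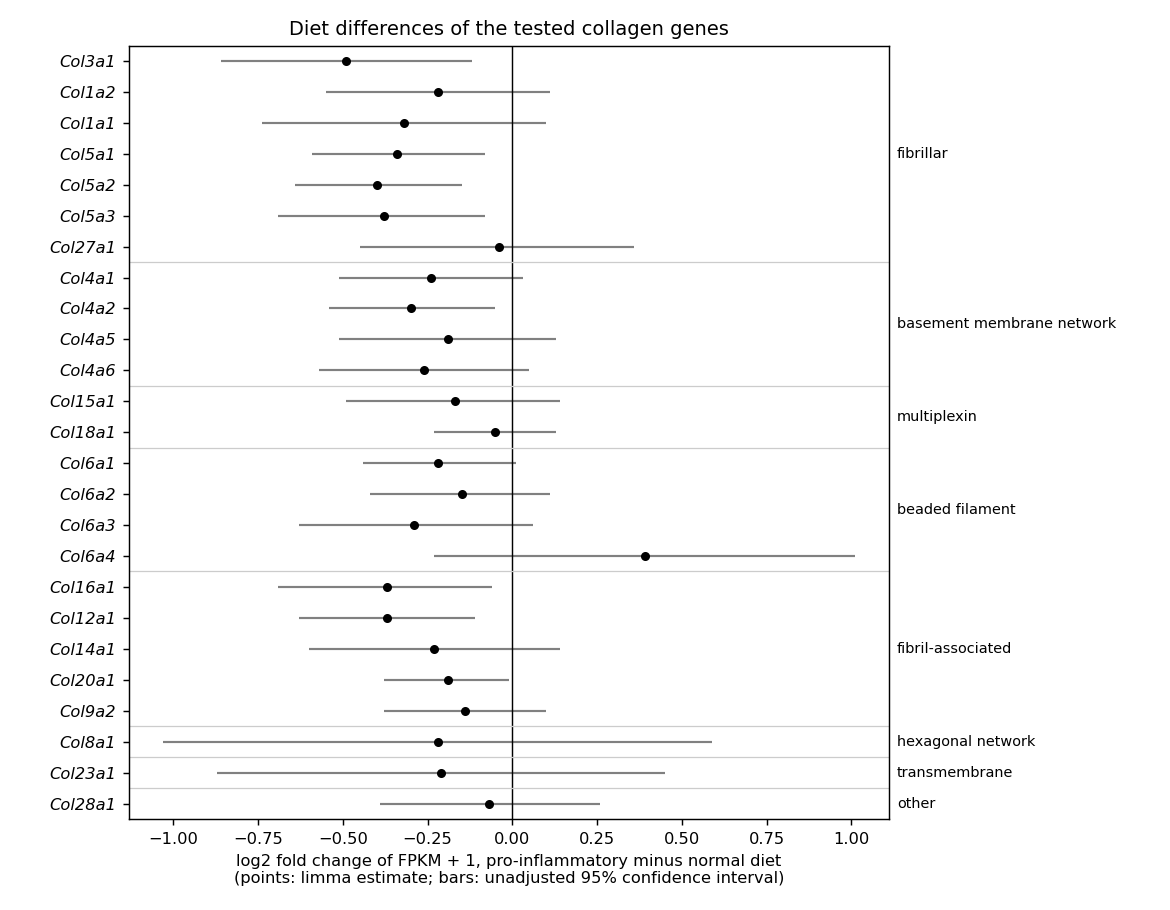
Log2 fold change of FPKM + 1 (pro-inflammatory minus normal diet) of the 25 tested collagen genes by class; points are limma estimates and bars their unadjusted 95% confidence intervals. Estimates run from -0.49 for Col3a1 to 0.39 for Col6a4. The intervals of 8 genes lie wholly below 0, where 9.25% of all genes tested were lower at an unadjusted p under 0.05 in limma.

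The fibrillar class had the lowest median difference of the 4 classes with more than 2 tested genes. Its 7 tested genes all had log2 fold changes below 0, with a median of -0.34. Of the 7, 4 were among those lower at an unadjusted p under 0.05 in limma, beside 9.25% of all genes. Summed over the class, the level was 219.6 ± 31.8 FPKM on the normal diet and 169.0 ± 34.9 on the pro-inflammatory diet. Col3a1, the chain of type III collagen (chromosome 1, 45311538 to 45349706, plus strand, GRCm38), was at 125.0, 107.0, 109.0, 83.4 and 126.0 FPKM in normal diet libraries 1 to 5. In pro-inflammatory diet libraries 1 to 5 it was at 91.2, 86.6, 70.3, 92.9 and 53.2 FPKM. Only normal diet library 4 lay within the range of the pro-inflammatory diet, and library 5 of that diet was the lowest of all. The means were 110.2 ± 17.4 and 78.8 ± 16.9 FPKM (log2 fold change -0.49, SE 0.17, 95% interval -0.86 to -0.12, limma adjusted p = 0.199).

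Col1a1 and Col1a2 encode the chains of type I collagen, the most abundant fibril protein of the body, and both overlapped widely between the diets. Col1a2 (chromosome 6, 4504814 to 4541544, plus strand) was at 49.4, 39.8, 41.5, 38.8 and 53.1 FPKM on the normal diet and 43.2, 46.6, 31.5, 42.4 and 28.3 FPKM on the pro-inflammatory diet, in order of library number. Col1a1 (chromosome 11, 94936224 to 94953042, plus strand) was at 40.8, 30.2, 30.5, 29.4 and 38.5 FPKM against 31.7, 33.4, 23.9, 32.4 and 16.3. For each chain, 3 of the 5 pro-inflammatory diet libraries lay above the normal diet median, and libraries 3 and 5 lay below all others. The log2 fold change was -0.22 (SE 0.15, limma adjusted p = 0.431) for Col1a2 and -0.32 (SE 0.19, adjusted p = 0.383) for Col1a1. Without pro-inflammatory diet library 5 that of Col1a1 was -0.153 and that of Col1a2 -0.123.

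Type V collagen is incorporated into type I fibrils, where it starts fibril formation and limits fibril width. All 3 of its genes lay lower on the pro-inflammatory diet without passing the test. Col5a2 (chromosome 1, 45374321 to 45503282, minus strand) was at 12.9, 10.9, 12.1, 10.7 and 13.7 FPKM on the normal diet and 10.1, 9.2, 8.48, 10.5 and 6.69 on the pro-inflammatory diet. It was the only one of the 25 tested collagen genes whose groups did not overlap, where 2.07% of all genes tested lay lower without overlap. The lowest normal diet value was 10.7 FPKM and the highest of the other diet 10.5 (log2 fold change -0.40, SE 0.11, interval -0.64 to -0.15, limma adjusted p = 0.173). Col5a1 (chromosome 2, 27886425 to 28039514, plus strand) was at 13.7, 10.8, 12.4, 9.81 and 13.3 FPKM against 10.3, 10.2, 8.27, 10.6 and 7.37. Here normal diet library 4 lay among the pro-inflammatory diet libraries (log2 fold change -0.34, SE 0.12, limma adjusted p = 0.206). Col5a3 (chromosome 9, 20770050 to 20815067, minus strand), the type V gene of lowest level, was at 4.52, 3.41, 3.45, 2.66 and 3.36 against 2.97, 3.11, 2.26, 2.21 and 1.71 FPKM, and its groups also overlapped through normal diet library 4 (log2 fold change -0.38, SE 0.14, limma adjusted p = 0.216). The remaining tested fibrillar gene, Col27a1, was at 2.34 ± 0.716 and 2.26 ± 0.746 FPKM, a difference within the spread of either diet.

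Basement membrane collagen had a median difference near that of the family. All 4 tested type IV genes had log2 fold changes below 0, between -0.30 and -0.19 with a median of -0.25, and the class summed to 80.8 ± 10.7 FPKM on the normal diet and 67.0 ± 9.84 on the pro-inflammatory diet. Col4a1 (chromosome 8, 11198423 to 11312826, minus strand) was at 46.3, 40.4, 48.3, 33.9 and 48.1 FPKM against 40.9, 40.8, 33.3, 38.9 and 29.0. Its partner Col4a2 (chromosome 8, 11312805 to 11449287, plus strand) was at 33.8, 27.4, 34.0, 26.4 and 33.8 against 27.3, 28.1, 22.1, 27.4 and 20.6 FPKM. In both genes normal diet libraries 1, 3 and 5 were the highest of the 10, libraries 2 and 4 of that diet lay among or near the pro-inflammatory diet values, and pro-inflammatory diet libraries 3 and 5 were the lowest. The log2 fold change was -0.24 (SE 0.12, limma adjusted p = 0.333) for Col4a1 and -0.30 (SE 0.11, adjusted p = 0.218) for Col4a2.

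Col4a5 and Col4a6 encode the chains of a type IV network found around smooth muscle and in some epithelial basement membranes, and were present at much lower levels. Col4a6 (chromosome X, 141165403 to 141474076, minus strand) was at 2.93, 2.37, 2.41, 2.0 and 3.08 FPKM against 2.19, 2.85, 1.4, 2.0 and 1.55, with overlap (log2 fold change -0.26, SE 0.14, limma adjusted p = 0.348). Col4a5 was at 3.64 ± 0.569 against 3.12 ± 0.877 FPKM. Col4a3 and Col4a4, whose chains form the network of the kidney glomerulus with Col4a5, were nearly absent, at means of 0.0727 and 0.0748 FPKM. The multiplexin genes differed little between the diets. Col15a1 was at 10.4 ± 2.04 against 9.06 ± 1.45 FPKM and Col18a1, whose protein carries the endostatin fragment, at 6.64 ± 0.535 against 6.4 ± 0.723, with log2 fold changes of -0.17 and -0.05.

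Type VI collagen is built from the chains of Col6a1, Col6a2 and, usually, Col6a3, and anchors cells to the surrounding matrix. Its 3 main genes lay slightly lower on the pro-inflammatory diet, and none had an interval clear of 0. Col6a1 (chromosome 10, 76708792 to 76726168, minus strand) was at 57.8, 47.1, 55.0, 48.0 and 59.7 FPKM against 51.5, 51.0, 39.2, 48.0 and 40.1 (log2 fold change -0.22, SE 0.10, limma adjusted p = 0.3). Col6a2 (chromosome 10, 76595762 to 76623630, minus strand) was at 31.3, 26.8, 28.4, 27.4 and 34.6 against 29.6, 31.6, 22.4, 29.0 and 21.4 FPKM (log2 fold change -0.15, SE 0.12, adjusted p = 0.494 by limma). Col6a3 (chromosome 1, 90765923 to 90843971, minus strand) was at 14.4, 9.79, 12.4, 9.1 and 13.1 against 10.2, 12.7, 7.59, 9.28 and 7.62 FPKM (log2 fold change -0.29, SE 0.16, limma adjusted p = 0.355). Pro-inflammatory diet libraries 3 and 5 were again the lowest in each of these 3 genes, and the other 3 libraries of that diet lay within the normal diet range. The log2 fold change of Col6a2 was -0.079 without pro-inflammatory diet library 5, -0.095 without library 3 of that diet and -0.097 without normal diet library 5.

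Col6a4, which encodes a chain that can take the place of that of Col6a3, was the only gene among the 25 tested with a higher mean on the pro-inflammatory diet. It lies on chromosome 9 (105989454 to 106096783, minus strand) beside Col6a5 and Col6a6. Its level was 1.73, 1.41, 2.13, 1.33 and 2.05 FPKM on the normal diet and 2.15, 5.75, 1.4, 1.3 and 3.85 on the pro-inflammatory diet. The higher mean came mainly from pro-inflammatory diet libraries 2 and 5, the same libraries in which Hoxb13 was low. Library 1 of that diet, at 2.15 FPKM, was just above the highest normal diet value of 2.13. Libraries 3 and 4, at 1.4 and 1.3, were close to the lowest normal diet value of 1.33. The log2 fold change was 0.39 (SE 0.28, interval -0.23 to 1.01, limma adjusted p = 0.462). Without pro-inflammatory diet libraries 2 and 5 it was -0.066, and the Col6a4 level in the other 3 of that diet did not separate from the normal diet.

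Fibril-associated collagens bind the surface of fibrils and link them to other matrix. All 5 tested genes of the class lay lower, with a median log2 fold change of -0.23, and the class summed to 29.8 ± 4.19 FPKM on the normal diet and 23.3 ± 2.93 on the pro-inflammatory diet. Col12a1 (chromosome 9, 79598991 to 79718831, minus strand), which binds type I fibrils under mechanical load, was at 11.7, 7.46, 10.3, 8.08 and 10.4 FPKM against 7.41, 7.83, 6.24, 6.43 and 7.74. The pro-inflammatory diet values were close together, and 3 of the 5 lay below the lowest normal diet value (log2 fold change -0.37, SE 0.12, interval -0.63 to -0.11, limma adjusted p = 0.185). Col16a1 (chromosome 4, 130047840 to 130099283, plus strand) was at 12.7, 9.63, 10.8, 8.67 and 11.2 against 10.3, 6.66, 8.21, 9.13 and 5.86 FPKM (log2 fold change -0.37, SE 0.14, limma adjusted p = 0.227). Pro-inflammatory diet libraries 5 and 2 held the lowest values of Col16a1. Col20a1 (chromosome 2, 180986535 to 181018363, plus strand) was at 2.22, 2.88, 2.49, 2.24 and 2.57 against 2.23, 2.22, 2.0, 1.68 and 2.09 FPKM, and 4 of the 5 pro-inflammatory diet values lay at or below the lowest of the normal diet (log2 fold change -0.19, SE 0.08, limma adjusted p = 0.275). Col14a1 was at 5.41 ± 0.99 against 4.55 ± 1.31 FPKM and Col9a2, a chain of cartilage fibrils, at 1.52 ± 0.243 against 1.29 ± 0.266.

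A few collagen genes shared a pattern over the libraries that did not follow the diets. Col8a1, a chain of the hexagonal networks of vessel walls and cornea, was at 9.78, 4.17, 8.52, 1.75 and 3.55 FPKM on the normal diet and 2.38, 4.39, 3.82, 3.37 and 7.03 on the pro-inflammatory diet. Col23a1, a transmembrane collagen, was at 4.41, 2.05, 4.48, 2.29 and 2.21 against 2.45, 4.29, 1.46, 1.02 and 4.09 FPKM. In both genes, normal diet libraries 1 and 3 and pro-inflammatory diet libraries 2 and 5 held the 4 highest values. The fibrillar gene Col27a1 had the same 4 libraries at the top, at 3.29, 2.93, 3.11 and 2.97 FPKM against 1.52 to 2.07 in the others, and so did the transmembrane genes Col13a1 and Col25a1, whose means of 0.427 and 0.257 FPKM were below the level tested. These 4 libraries led in 3 of the 25 tested collagen genes and in 506 of the 12345 genes tested, 4.1%, and the set was chosen after its values were seen. Rgs5, a marker of pericytes, the contractile cells around small vessels, was at 48.6, 60.2, 70.4 and 66.9 FPKM in the same libraries and between 23.8 and 33.5 in the others. Of the other 4 pericyte markers, Cspg4 was also highest in these libraries, at 2.93, 2.81, 3.91 and 3.39 FPKM, and the remaining 3 were not. Abcc9 was at 6.52 and 5.18 FPKM in pro-inflammatory diet libraries 2 and 5, below its normal diet range of 7.45 to 9.54. Libraries 3 and 4 of the pro-inflammatory diet, at 5.32 and 6.04, were also below that range. Kcnj8 was highest in normal diet libraries 1 and 3, at 7.85 and 8.27 FPKM. In pro-inflammatory diet libraries 2 and 5 it was at 6.41 and 6.22, with 6.54 and 6.18 in libraries 3 and 4. Notch3 was at 1.48 in normal diet library 3, its lowest of the normal diet. Whether pericytes bear on these collagen genes was not tested. The summed pericyte markers, of which Rgs5 is the largest part, ran from 46.4 to 82.3 FPKM on the normal diet and from 40.02 to 89.8 on the pro-inflammatory diet.

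**Figure D3:**
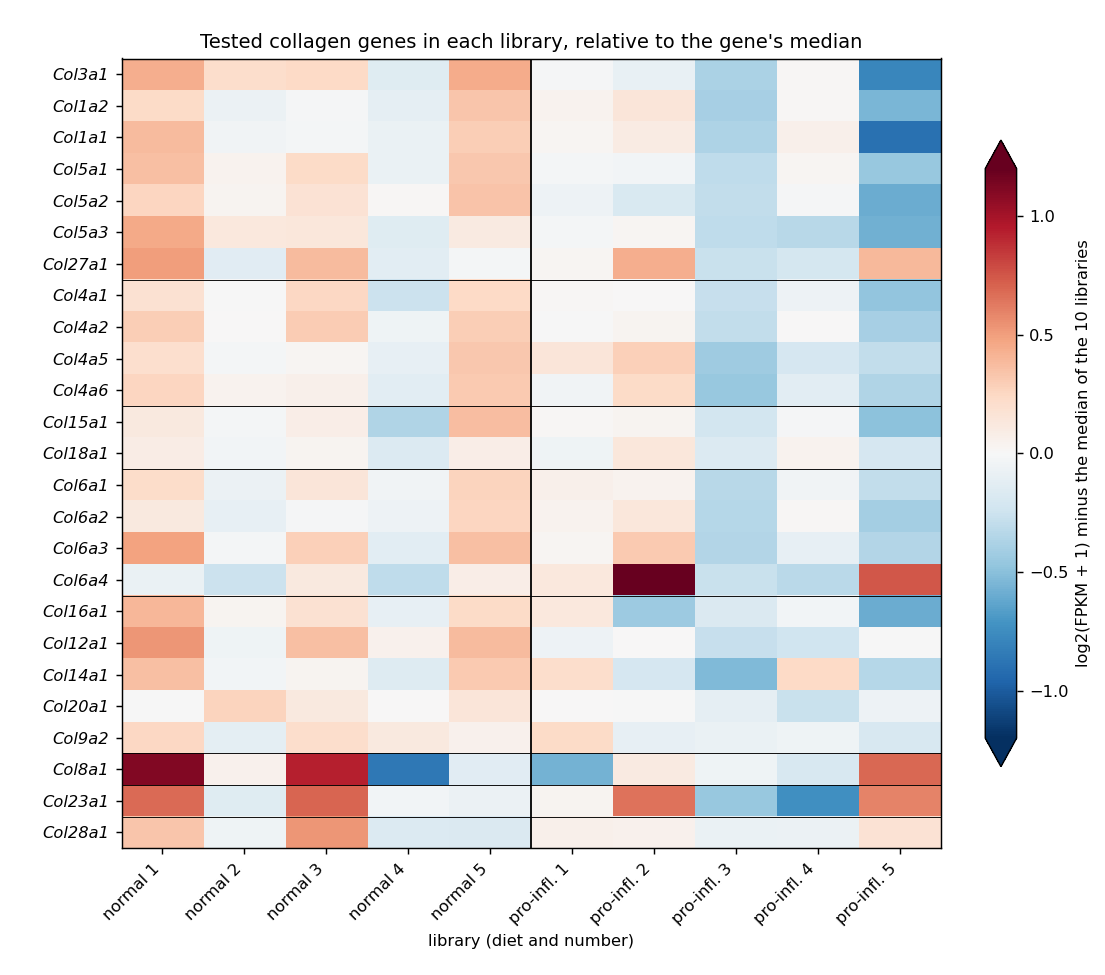
Each of the 25 tested collagen genes (rows, by class) in each library (columns, normal diet left of the line), as log2(FPKM + 1) minus the gene's median over the 10 libraries; red is above and blue below that median. Pro-inflammatory diet libraries 3 and 5 are blue in most rows, and Col8a1, Col23a1 and Col27a1 are red in normal diet libraries 1 and 3 and pro-inflammatory diet libraries 2 and 5.

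Col28a1, known from peripheral nerve, was at 1.41 ± 0.551 FPKM on the normal diet and 1.26 ± 0.165 on the other. The 19 genes with a mean below 1 FPKM were not tested. Col2a1 and Col10a1 were close to absent. Col2a1 of cartilage was listed at 0 in 7 libraries and had 6 reads in all, and Col10a1 of growth plate cartilage was at 0 in 9 libraries and had 1 read. Col6a6 and Col26a1 were at 0 in 2 libraries each. Col6a6 had 15 reads in all, 0 or 1 per library on the normal diet and 1 to 5 on the pro-inflammatory diet, and its FPKM did not overlap between the diets, at 0 to 0.00813 and 0.00841 to 0.0377. At so few reads no difference between the diets could be read from it. Col9a1, Col19a1 and Col22a1 of the fibril-associated class had means of 0.0388, 0.0151 and 0.0444 FPKM, and Col9a3 a mean of 0.147. Col11a1, Col11a2 and Col24a1 of the fibrillar class lay between 0.29 and 0.389 FPKM, and Col6a5 at 0.377. Col8a2, the partner of Col8a1, was just below the level tested, at 1.49, 1.04, 0.835, 0.86 and 1.18 FPKM on the normal diet and 0.944, 0.306, 0.461, 0.889 and 0.393 on the pro-inflammatory diet. Of the 19, 11 had a lower and 8 a higher mean on the pro-inflammatory diet.

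Col17a1 and Col7a1 hold stratified epithelium to its basement membrane, through the hemidesmosome and the anchoring fibril. Col17a1 (chromosome 19, 47646344 to 47692094, minus strand) was at 5.35 FPKM in normal diet library 4 and between 0.0454 and 0.16 in the other 9. That library also held the squamous epithelial genes, with Krt13 at 21.0 FPKM and Trp63 at 2.02, against at most 0.243 and 0.0274 elsewhere. The 8 squamous markers summed to 218.0 FPKM there and to at most 1.82 in any other library. Col7a1 was likewise highest in that library, at 0.607 FPKM, but only slightly above the others, which ran from 0.156 to 0.52.

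Ratios of chains within a library do not move with its total, and most were steady. The ratio of Col4a1 to Col4a2, the head-to-head pair shown above, stayed between 1.28 and 1.51 in all 10 libraries. That of Col6a1 to Col6a2 ran from 1.61 to 1.94, and that of Col5a1 to Col5a2 from 0.918 to 1.1. For type I, the ratio of Col1a1 to Col1a2 lay between 0.716 and 0.824 in 9 libraries and was 0.575 in pro-inflammatory diet library 5. Col3a1 stood at 3.26 ± 0.316 times Col1a1 on the normal diet and 2.91 ± 0.238 times on the pro-inflammatory diet, which was the largest difference among the 6 ratios (log2 difference -0.16, SE 0.08, two-sided exact permutation p = 0.0952, adjusted p = 0.324 over 6). The ratio of Col4a1 to Col1a1, basement membrane against fibril, was 1.29 ± 0.182 and 1.38 ± 0.237, with 1.78 in pro-inflammatory diet library 5 (log2 difference 0.09, SE 0.13, exact permutation p = 0.516). All 6 ratios overlapped between the diets and none passed, with adjusted p-values from 0.324 to 0.516, where the smallest p that this exact test can give is 0.00794.

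**Figure D4:**
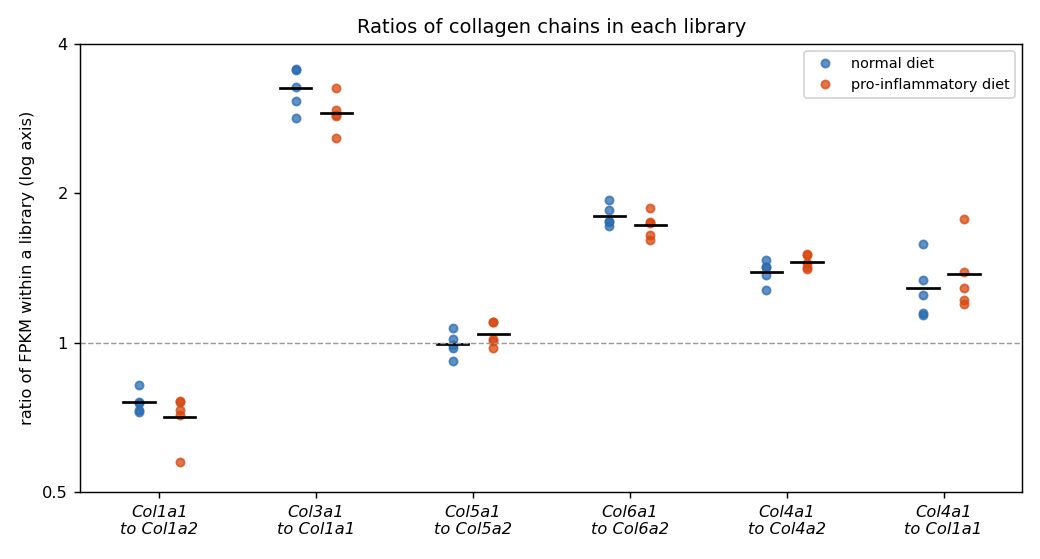
Ratio of the FPKM of 2 collagen chains within a library, on a log axis; blue points are normal and orange points pro-inflammatory diet libraries, and black lines are group means. The diets overlap in all 6 ratios, and the low Col1a1 to Col1a2 point at 0.575 and the high Col4a1 to Col1a1 point at 1.78 are both pro-inflammatory diet library 5.

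Collagen chains are hydroxylated, glycosylated and folded in the endoplasmic reticulum before export. Of 21 genes of this machinery, 19 were tested, 0 passed, 13 had log2 fold changes below 0 and 6 above, with a median of -0.06. At an unadjusted p under 0.05, limma placed 3 of the 19 lower and 0 higher, against 9.25% and 8.16% of all genes. Plod2, which hydroxylates lysines of the chain ends that later form crosslinks, was at 3.1, 3.27, 3.93, 2.19 and 2.74 FPKM on the normal diet and 2.0, 1.69, 1.72, 1.95 and 1.48 on the pro-inflammatory diet. Its groups did not overlap (log2 fold change -0.54, SE 0.12, limma adjusted p = 0.151). Of all genes tested, 2.07% lay lower without overlap, a share that also belongs beside the genes without overlap in the lists below. P4ha1, a catalytic subunit of prolyl hydroxylase, was at 15.2 ± 3.11 against 10.5 ± 1.95 FPKM, and Serpinh1, the collagen chaperone HSP47, at 59.5 ± 9.29 against 45.6 ± 8.53, with log2 fold changes of -0.49 and -0.38. P3h2, which hydroxylates prolines of type IV collagen, had a log2 fold change of -0.26. None of these passed (adjusted p = 0.151 to 0.291 by limma). Here and in the other lists of collagen-related genes, the first 4 genes named are those with the smallest unadjusted p. Among the genes of this list not picked in that way, P4hb and Ppib had log2 fold changes of 0.21 and 0.12.

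After secretion, propeptides are cut off and fibrils are crosslinked. Of 12 tested genes of these steps among 17, 8 lay lower and 4 higher, with a median log2 fold change of -0.13 and 0 passing, and limma placed 2 lower and 1 higher at an unadjusted p under 0.05, where the shares of all genes were 9.25% and 8.16%. Adamts2, which removes the amino-terminal propeptide of fibrillar chains, was at 2.64, 2.66, 2.52, 2.7 and 2.93 FPKM against 2.45, 1.6, 1.9, 2.34 and 1.51, without overlap (log2 fold change -0.33, SE 0.10, limma adjusted p = 0.183). Loxl2, a lysyl oxidase, and Pxdn, the peroxidase that crosslinks type IV collagen, had log2 fold changes of -0.29 and -0.23. Mep1a, a metalloprotease of the intestinal brush border that can also cleave procollagen, lay the other way, at 106.0 ± 8.32 against 133.0 ± 16.5 FPKM (log2 fold change 0.32, SE 0.09, limma adjusted p = 0.173). Beside it, the epithelial markers had a median log2 fold change of 0.2.

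Proteins that bind collagen fibrils had the lowest median of the 7 lists of collagen-related genes. Of 12 tested genes out of 13, 10 lay lower and 2 higher, with a median of -0.40 and 0 passing. Limma placed 6 of them lower at an unadjusted p under 0.05 and 0 higher, beside 9.25% and 8.16% of all genes. Ogn, a small leucine-rich proteoglycan, was at 57.7, 45.7, 50.7, 45.7 and 57.4 FPKM on the normal diet and 38.8, 38.2, 26.2, 35.5 and 39.0 on the pro-inflammatory diet, without overlap (log2 fold change -0.53, SE 0.12, limma adjusted p = 0.152). Its relatives Aspn, Prelp and Lum, which also bind fibrils, had log2 fold changes of -0.52, -0.40 and -0.39 with adjusted p-values of 0.173 to 0.189 in limma. Dcn and Bgn, further small proteoglycans of the list, had -0.15 and -0.07, with limma adjusted p-values of 0.568 and 0.799.

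Partners of collagen in the basement membrane, receptors of collagen or other matrix and the enzymes that break collagen down had medians between -0.13 and -0.09, as had signalling to matrix. Of 13 tested basement membrane genes, 9 lay lower and 4 higher (median log2 fold change -0.13), and limma placed 3 lower and 0 higher at an unadjusted p under 0.05, against 9.25% and 8.16% of all genes. The laminin chains Lama3, Lama5 and Lamb2 and the proteoglycan perlecan, Hspg2, had -0.38, -0.27, -0.21 and -0.24. Among the other laminin chains, Lama4, Lamb1 and Lamb3 had 0.0, -0.02 and 0.07. Among 9 tested receptors of collagen or other matrix, 5 lay lower and 4 higher (median -0.09), with 2 lower and 0 higher at that p. Itga1, the integrin subunit that prefers type IV collagen, was at 18.6, 13.4, 17, 13.6 and 17.8 FPKM against 13.2, 12.9, 10.4, 11 and 13, without overlap (log2 fold change -0.38, SE 0.11, limma adjusted p = 0.173), while Itga10, Ddr2 and Dag1 had -0.30, -0.24 and 0.14. Of 11 tested genes of collagen breakdown, 7 lay lower and 4 higher (median -0.13), and 0 reached an unadjusted p under 0.05 in limma. There, the membrane collagenase Mmp14 had -0.17, the protease Ctsk -0.38 and the inhibitors Timp3 and Timp4 -0.17 and -0.33. Of 16 tested genes of TGF-beta signalling to matrix, the main inducer of collagen transcription, 11 lay lower and 5 higher (median -0.11), again with 0 at that p. Tgfb3, Tgfbr2 and Ltbp3 had -0.18, -0.18 and -0.26, and Ccn1, a matrix protein of the CCN family, 0.63 with an SE of 0.42. No gene of these 4 lists passed the adjusted threshold.

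Markers of cell types that make or surround collagen were measured in the same libraries. Smooth muscle markers lay lower in 9 of 9 genes, with a median log2 fold change of -0.32, and summed to 2282 to 3461 FPKM on the normal diet and 1997 to 2781 on the pro-inflammatory diet. Limma placed 6 of the 9 lower at an unadjusted p under 0.05, beside 9.25% of all genes, and 0 passed. Fibroblast markers, of which Dcn, Lum and Dpt also stand among the fibril partners, lay lower in 6 of 9, with a median of -0.11 and sums of 223.0 to 294.0 against 191.0 to 275.0 FPKM. Epithelial markers lay higher in 5 of 8, with a median of 0.20. With the smooth muscle score less the epithelial score of each library in the fit, 18 of the 25 collagen genes had log2 fold changes below 0, their median was -0.063, and limma placed 1 of the 25 lower at an unadjusted p under 0.05, against 5.35% of all genes in the same fit. The mean smooth muscle sum was 2946 FPKM on the normal and 2382 on the other diet, and the mean epithelial sum 5760.3 and 6490.5, so the covariate and the diet share part of their variation. Sums of the remaining markers overlapped between the diets, and 0 of their genes passed. Endothelial markers lay lower in 4 of 7 (median log2 fold change -0.02) and summed to 48.9 to 63.9 FPKM against 49.1 to 70.6. Glial markers lay higher in 3 of 3 tested (median 0.11) and summed to 5.42 to 8.13 against 5.9 to 8.22. Adipocyte markers lay higher in 4 of 4 tested (median 0.83) and summed to 24.6 to 61.2 against 30.4 to 174.0 FPKM. Mesothelial markers, none of which reached the level tested, summed to 1.68 to 4.9 against 0.671 to 4.05 FPKM. Distal colon markers lay lower in 5 of 5 (median -0.65) and summed to 261.0 to 403.0 against 5.86 to 420.0, with the lowest sums, 5.86 and 32.3 FPKM, in pro-inflammatory diet libraries 2 and 5.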

How the data were processed

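RNA-seq of mouse colon covered 5 samples per diet, 10 in all. Per the labels' protocols, a strand-specific mRNA kit and paired reads were used. The authors deposited 1 table of FPKM per gene symbol and sample. Per the submitters' processing notes, the genome was mm10 and the tools were HISAT2, StringTie, Cufflinks, HTSeq, DESeq, Bowtie2 and Trimmomatic. The roles of these tools and any use of strand in counting are not stated, so overlapping genes are uncertain. FPKM values of 18398 of 18398 genes were whole multiples of 1 read within 0.001 read, which gave the reads per library. A gene above 0 in only 1 library meets this rule by construction, and its value there is counted as 1 read. For a gene above 0 in only a few libraries the rule is also easily met, so its passing says little.

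The 12345 genes with a mean of at least 1 FPKM entered limma 3.58.1 as log2(FPKM + 1) (R 4.3.3, eBayes with trend, Benjamini-Hochberg at 0.05, two-sided). The 6 chain ratios were compared by exact permutation. The code was tested on simulated data. The members and gene lists were chosen with earlier results of these data known. Members with a mean of at least 10 FPKM and the 6 others with the smallest unadjusted p are named with their statistics. So are at most 4 genes per list of collagen-related genes, those with the smallest unadjusted p, which are not typical of their list. A few further genes are given beside them. The squamous genes, Hoxb13 and Rgs5 were picked after looking at their values. Gene coordinates are 1-based, from GENCODE M21 of GRCm38, the assembly of mm10. Same-numbered libraries did not deviate together. Other pseudocounts, filters, scalings, weights, a replicate block, a covariate and left-out libraries were tried. Figures were drawn with matplotlib 3.10.9.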

Additional observations from a re-analysis of the deposited data

Results flagged for a closer look

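Within a diet, 3 of 70 sets of 5 values (a collagen gene in a diet, with at least 20 reads in some library) had a library that stood far from the other 4, by Dixon's criterion, which chance alone meets in about 1 in 20 sets. Col17a1 was at 5.35 FPKM in normal diet library 4, against 0.0505 to 0.16 in the other libraries of that diet. Col4a3 was at 0.163 FPKM in normal diet library 1, against 0.0427 to 0.0759. Col9a2 was at 1.75 FPKM in pro-inflammatory diet library 1, against 1.05 to 1.25.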

How the results depend on the processing

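Under every alternative, 0 genes and 0 collagen genes passed the adjusted threshold, so no call changed. The median log2 fold change of the tested collagen genes stayed below 0, from -0.292 to -0.063, and was lowest in size (-0.063) with a covariate of smooth muscle less epithelial score. Leaving out 1 library gave -0.292 to -0.173. Without normal diet libraries 1, 2 and 3 it was -0.21, with 20 of 25 lower and 2 at an unadjusted p under 0.05 (2.27% of all genes). Without the filter, 36 of 44 were lower (median -0.163). Array weights gave 12 collagen genes at an unadjusted p under 0.05 (12.7% of all genes).

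Of the 25 tested collagen genes, 18 lay below 0 with the covariate, and 22 without normal diet library 1 or library 3, in place of 24. With the covariate, the 16 collagen genes named with their statistics kept their direction. Those that turned were among the other tested collagen genes, which are not listed here. Among the genes and ratios named with their statistics, these directions turned, and the cause was not tested. Col6a4 went to -0.066 without pro-inflammatory diet libraries 2 and 5 and to -0.12 when normal diet library 4 was also left out, a setting chosen after seeing the data. In that setting Timp3 was at 0.002, the ratio of Col4a1 to Col1a1 at -0.025 and that of Col5a1 to Col5a2 at -0.017. Timp3 was at 0.022 with the covariate, and Mmp14 at 0.056 without normal diet libraries 1, 2 and 3. Leaving out 1 library moved the Col4a1 to Col1a1 ratio between -0.008 and 0.165, with the lowest value without pro-inflammatory diet library 5.

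With the replicate number as a block (replicate block), the median was -0.223 and 6 collagen genes lay lower at an unadjusted p under 0.05 (7.8% of all genes). Deviations of same-numbered libraries correlated at -0.263 to 0.061, so no pairing by number was seen. Correlations over all genes cannot exclude a weaker link between same-numbered libraries.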
